A study of Rattus norvegicus with 12 samples.

Results

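The genes described here encode the noncollagen proteins of the extracellular matrix and the enzymes and chaperones that modify, process, and crosslink collagen and elastin. They were followed in wound tissue of diabetic rats. They were chosen by name, as a list of 40 gene symbols, and 39 of the 40 were found among the 25620 genes of the deposited count table and the 25524 genes of the deposited FPKM table. Tnxb, the gene of tenascin X, was not analysed here. The 39 genes fall into 9 groups by role, namely the adhesive glycoproteins (Fn1 and Vtn), tenascin C and periostin, the thrombospondins, the SPARC proteins with Cthrc1, the elastic fibre core and microfibrils, the fibulins and emilins, the lysyl oxidases, the procollagen hydroxylases with the chaperone Serpinh1 and Pcolce, and the nidogens.

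A healing wound first fills with a provisional matrix of fibrin and fibronectin, and fibroblasts then replace it with granulation tissue rich in collagen. Collagen chains are hydroxylated on proline and lysine and folded with the help of a chaperone inside the cell, trimmed outside it, and joined by lysyl oxidases into crosslinked fibrils. Matricellular proteins, such as tenascin C, periostin, the thrombospondins, and SPARC, are made in large amounts during repair and tune how cells hold on to the matrix, while fibrillins, elastin, fibulins, and lysyl oxidases assemble elastic fibres.

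The tissue came from male Sprague-Dawley rats, aged 8 to 12 weeks as supplied, that were made diabetic with streptozotocin (STZ), with a circular full-thickness wound punched in the dorsal skin, a condition that the controls shared. The controls received saline. The other wounds were covered with d-SMG, a dried gel of the mucus of the snail *A. fulica*, with s-GAG, the sulfated glycosaminoglycan purified from that gel, or with the alginate dressing Alg. Tissue was taken on day 3, 7, and 14, the data hold 1 library for each treatment and day, 12 libraries altogether, and the number of rats behind a library is not given in the sources used here. STZ destroys the insulin-producing cells of the pancreas, and the model lacks some features of a human diabetic ulcer.

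The libraries held 13748887 to 38302461 reads on genes, and no pair of libraries had identical counts. They differed widely in markers of other tissues. The summed level of 17 skeletal muscle genes ranged from 7207 CPM (read counts scaled to library totals with TMM factors) in d-SMG on day 7 to 283572 CPM in d-SMG on day 3, and that of 10 keratinocyte genes from 42.4 CPM in d-SMG on day 3 to 37962 CPM in s-GAG on day 14. The summed level of 10 fibroblast genes ranged from 753.6 CPM in d-SMG on day 3 to 2360 CPM in d-SMG on day 7. All of these marker genes had reads in all 12 libraries, so that transcripts of each kind were found throughout, in unequal amounts. Of 13 keratinocyte genes listed, only these 10 were tested. Reads alone do not show how much skin a library held. The summed level of 11 hair follicle genes ranged from 25.8 CPM in d-SMG on day 3, where 1 of them had no reads, to 43542 CPM in Alg on day 14, and was 31.2 and 84.3 CPM in the controls of days 3 and 7. The d-SMG library of day 3 and the s-GAG library of day 14 stood apart from the others, with TMM factors of 0.709 and 0.742, against 0.961 to 1.22 in the other 10 libraries. In such bulk tissue, fewer cells of a type and less RNA per cell cannot be told apart, and the part of tissue composition in the results below was not tested.

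The 39 genes together held 4229 to 16149 CPM. Their sum was highest in the control library of day 7, at 16149 CPM, and second highest in the d-SMG library of day 7, at 11359 CPM. Sparc alone held 5182 and 3620 CPM of these sums, so that they weigh the most abundant genes most. The other 10 libraries held 4229 CPM (s-GAG, day 14) to 8248 CPM (control, day 14). The fibroblast markers were also high in both of these day 7 libraries, at 2182 and 2360 CPM, and Alg on day 14 had a like fibroblast sum of 2260 CPM while its matrix genes summed to 6036 CPM. The matrix sum over the fibroblast sum was 7.40 in the control of day 7, 4.81 in d-SMG of day 7, and 2.67 to 6.75 over the other libraries.

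**Figure D1:**
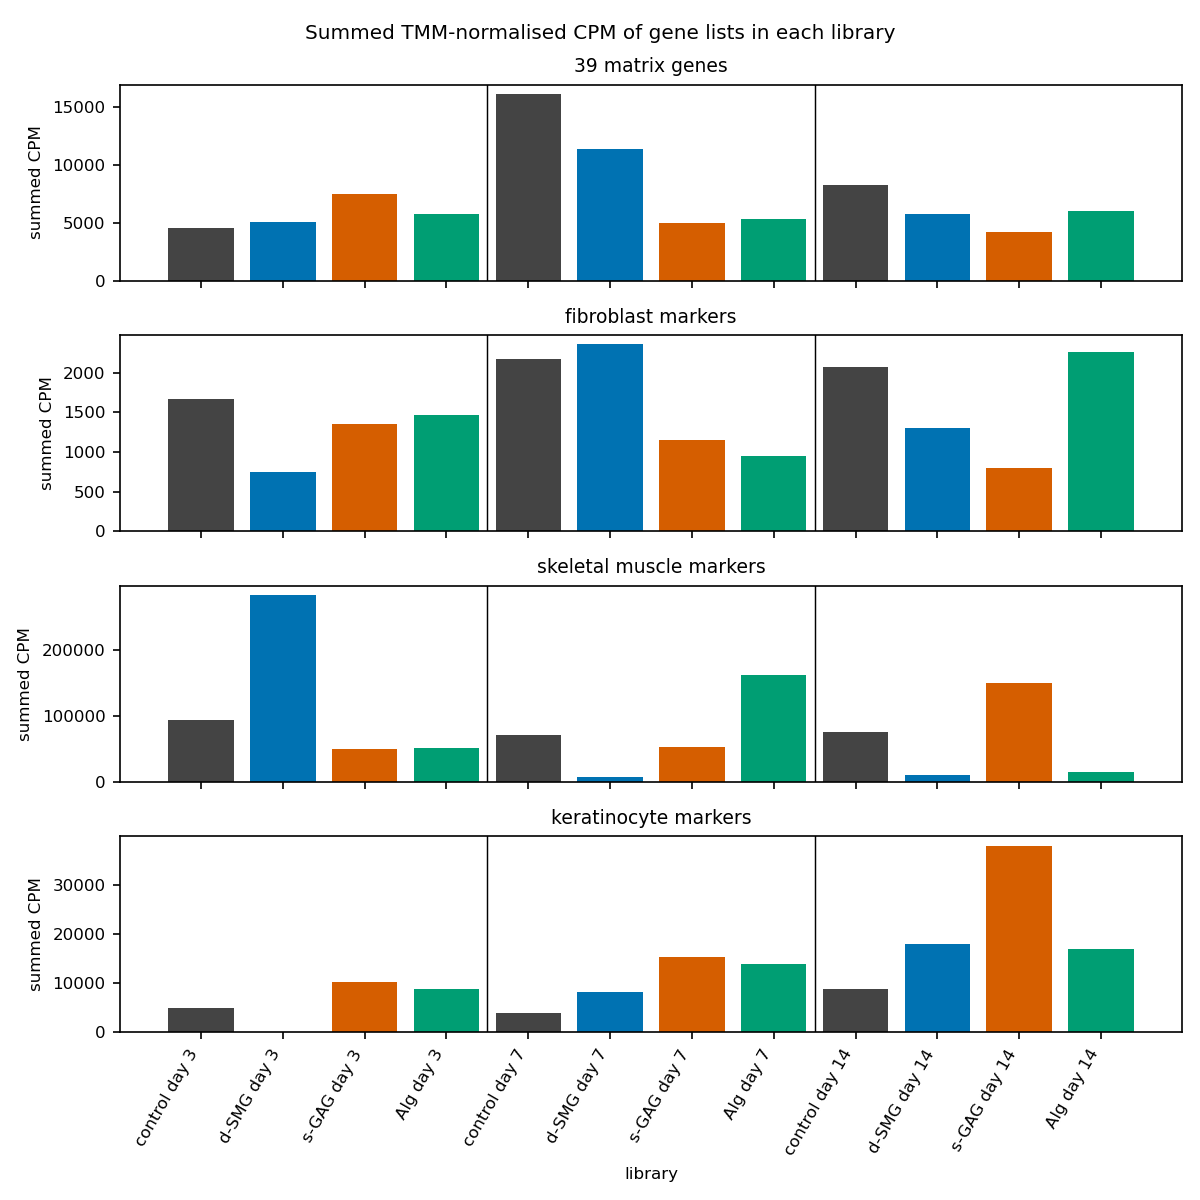
The bars give the summed TMM-normalised CPM of the 39 matrix genes and of the fibroblast, skeletal muscle, and keratinocyte markers in each of the 12 libraries, from day 3 at the left to day 14 at the right, each panel on its own linear axis from 0. The matrix sum is highest in the control of day 7 (16149 CPM) and in d-SMG of day 7 (11359 CPM), and the skeletal muscle sum is highest in d-SMG of day 3 (283572 CPM).

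Levels can be compared between genes only in FPKM, which takes the length of the gene into account. By mean FPKM over the 12 libraries, Sparc was the most abundant of the 39 genes, at 967.6 FPKM and it was highest in each of the 12. The means of Sparcl1 (261.0 FPKM), the collagen chaperone gene Serpinh1 (239.3 FPKM), Postn (180.6 FPKM), and Fn1 (75.4 FPKM) were next, but their order changed between libraries. Sparcl1 had 304.2 FPKM and Serpinh1 194.3 FPKM in the control of day 3, and 291.0 and 570.4 FPKM in the control of day 7. The least abundant were Comp (0.237 FPKM), Loxl3 (1.43 FPKM), Fbn2 (1.88 FPKM), and Nid2 (2.11 FPKM). The highest library exceeded the lowest by more than 10-fold in CPM in 14 of the 39 genes and by less than 4-fold in 8, and Fbn2 (179-fold), Nid1 (38.4-fold), Tnc (36.7-fold), and Plod2 (30.2-fold) had the widest ranges, whereas Vtn (1.79-fold) had the narrowest. The share of all genes with such ranges was not counted, so it is not known whether these counts are unusual.

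**Figure D2:**
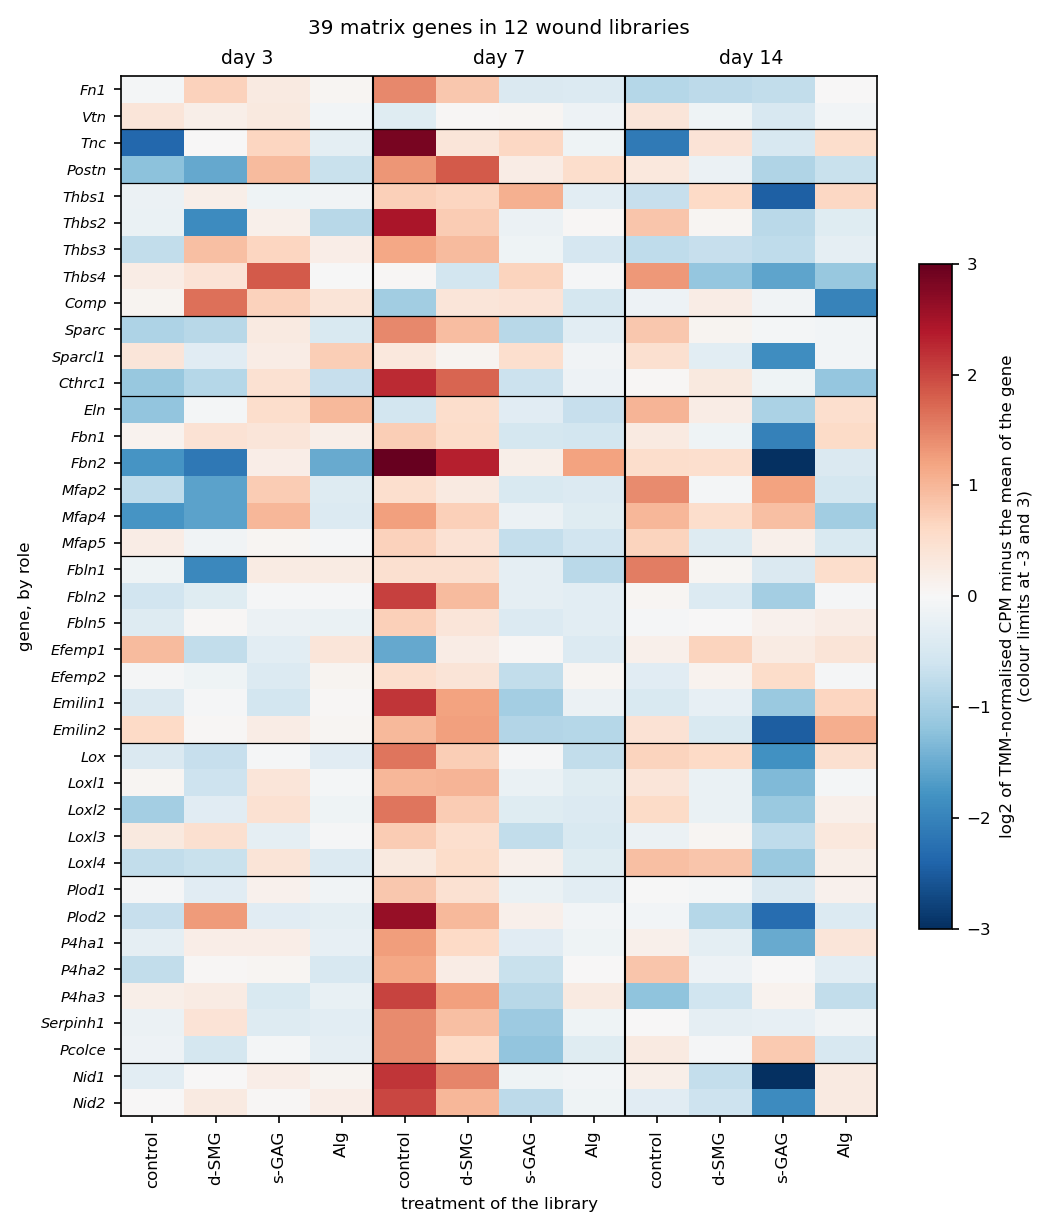
Colours give the log2 of the TMM-normalised CPM of each of the 39 genes (rows, by role) in each of the 12 libraries (columns, by day), minus the mean of that gene, with the colours limited at -3 and 3. Rows are darkest red in the control library of day 7, which holds the highest value of 25 of the 39 genes, and many are blue in the s-GAG library of day 14, which holds the lowest value of 19.

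The control wound of day 7 held the highest level of the 12 libraries in 25 of the 39 genes, where 10.9% of all 15354 genes tested had their highest level in that library. In 17 of those 25 genes the d-SMG library of day 7 came second, and both libraries were the top pair, in either order, in 19 genes. The share of all genes with this top pair was not counted, so these counts cannot be set against all genes. The lowest level was in the s-GAG library of day 14 in 19 of the 39 genes, but that library also held the lowest level of 29.5% of all genes. With FPKM or with scaling by library size alone the first of these counts was 21 in place of 25, and the share of all genes under these scalings is not given here. This way of counting was chosen after the values were seen.

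Fibronectin, a glycoprotein that binds cells and fibrin, and vitronectin, an adhesive protein made mainly in the liver, form the first group. Fn1 had 584, 1631, and 336 CPM in the control on day 3, 7, and 14, respectively, 974, 1058, and 349 CPM in d-SMG, 735, 446, and 364 CPM in s-GAG, and 629.8, 458, and 607 CPM in Alg. The Fn1 level of control on day 7 was thus 2.79-fold that of day 3, d-SMG differed little between these days, and 3 of the 4 libraries of day 14 lay close together while Alg stood above them. Vtn ranged only from 4.10 to 7.34 CPM over the 12 libraries.

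Tenascin C is scarce in intact skin and is made at wound edges, and periostin binds collagen and fibronectin. Tnc measured 23.6, 866, and 28.0 CPM in the control on day 3, 7, and 14, respectively, 121, 154, and 159.7 CPM in d-SMG, 188, 187, and 86.9 CPM in s-GAG, and 98.7, 110.2, and 173 CPM in Alg. Here the control was the lowest library on days 3 and 14 and by far the highest on day 7, whereas the 9 dressed wounds stayed between 86.9 and 187.9 CPM at all times. Postn stood at 212, 1247, and 621 CPM in the control on day 3, 7, and 14, respectively, 172, 1774, and 441 CPM in d-SMG, 952, 578, and 264 CPM in s-GAG, and 313, 720.2, and 311 CPM in Alg. For Postn the highest library was d-SMG on day 7, followed by control on day 7 and s-GAG on day 3. The levels of day 7 (578.2 to 1774 CPM) and of day 14 (264.3 to 621.2 CPM) overlapped.

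Of the thrombospondins, Thbs1 and Thbs2 restrain new vessels and bind growth factors, and Comp, the cartilage oligomeric matrix protein, is a marker of cartilage and tendon. Thbs2 was at 142, 891, and 289.7 CPM in the control on day 3, 7, and 14, respectively, 44.1, 277, and 170.5 CPM in d-SMG, 181, 145, and 93.2 CPM in s-GAG, and 91.5, 168, and 127 CPM in Alg. All 3 dressed libraries of day 7 lay under the control of that day, and the d-SMG library of day 3 was the lowest of all. Comp had 0.625, 0.271, and 0.530 CPM in the control on day 3, 7, and 14, respectively, 1.93, 0.763, and 0.691 CPM in d-SMG, 0.967, 0.795, and 0.546 CPM in s-GAG, and 0.780, 0.399, and 0.126 CPM in Alg. These Comp levels rest on 2 reads (Alg, day 14) to 32 reads (s-GAG, day 7) and are too low to rank. The cartilage and tendon markers summed to at most 76.3 and 65.0 CPM over the 12 libraries, and their part in the Comp and Thbs4 levels was not tested. Thbs1 was lowest in s-GAG on day 14, at 14.1 CPM, against 47.9 to 162.6 CPM in the other libraries, Thbs3 ranged from 6.22 to 23.7 CPM, and Thbs4, which is also made by muscle and tendon, from 5.67 to 61.1 CPM.

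SPARC binds collagen and is made by cells that lay down matrix, SPARC-like 1 is found around vessels, and Cthrc1 is made by activated fibroblasts. Sparc measured 1008, 5182, and 3384 CPM in the control on day 3, 7, and 14, respectively, 1082, 3620, and 2015 CPM in d-SMG, 2313, 1081, and 1839 CPM in s-GAG, and 1391, 1535, and 1814 CPM in Alg. Sparc had the shape of the summed level, with the control and d-SMG of day 7 on top and the control of day 14 next. Sparc itself is a large part of that sum, so this likeness is partly built in. Sparcl1 stood at 868, 854, and 951 CPM in the control on day 3, 7, and 14, respectively, 542, 716, and 548 CPM in d-SMG, 795, 959.5, and 186 CPM in s-GAG, and 1127, 635, and 647 CPM in Alg. Sparcl1 did not share the shape of Sparc, since its control libraries stood between 853.7 and 950.6 CPM on all 3 days and s-GAG of day 14 was far under the rest. Cthrc1 reached 147.1 CPM in the control and 104.5 CPM in d-SMG on day 7, against 13.9 to 43.3 CPM in the other 10 libraries.

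In the elastic fibre group, microfibril-associated proteins bind fibrillin and elastin. Mfap4 was at 25.4, 204, and 172 CPM in the control on day 3, 7, and 14, respectively, 28.6, 141, and 126 CPM in d-SMG, 172, 76.3, and 162 CPM in s-GAG, and 65.2, 67.2, and 42.3 CPM in Alg. The control of day 3 and d-SMG of day 3 were lowest, and s-GAG of day 3 was close to the controls of days 7 and 14. Mfap2 had 3.34, 8.07, and 15.2 CPM in the control on day 3, 7, and 14, respectively, 1.85, 6.77, and 5.41 CPM in d-SMG, 9.55, 4.13, and 13.1 CPM in s-GAG, and 4.29, 4.25, and 3.89 CPM in Alg. Mfap2 was highest in the control and s-GAG of day 14, and its days overlapped. Fbn2, the fibrillin of embryonic and newly forming tissue, was named for its range after the values were seen. It had 122.2 CPM in the control of day 7, 34.4 CPM in d-SMG, 15.7 CPM in Alg, and 7.61 CPM in s-GAG on that day, with 1.51 to 7.79 CPM on day 3 and 0.683 to 9.83 CPM on day 14. The levels of day 7 thus overlapped those of day 3 only through s-GAG. Fbn1, the fibrillin of adult tissue, ranged from 50.6 to 343.2 CPM, Eln, the gene of elastin itself, from 68.9 CPM (control, day 3) to 320.9 CPM (control, day 14), and Mfap5 from 7.98 to 21.5 CPM.

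The fibulins join elastin to microfibrils, and the emilins lie at their interface. Emilin1 measured 76.8, 459, and 75.9 CPM in the control on day 3, 7, and 14, respectively, 102, 241, and 88.3 CPM in d-SMG, 71.4, 51.0, and 48.0 CPM in s-GAG, and 107, 91.9, and 162 CPM in Alg. Emilin1 had the same top pair as Sparc, and Alg of day 14 was next. Fbln1 stood at 15.4, 23.3, and 48.3 CPM in the control on day 3, 7, and 14, respectively, 4.37, 23.4, and 17.4 CPM in d-SMG, 19.96, 13.9, and 12.5 CPM in s-GAG, and 19.9, 9.50, and 24.4 CPM in Alg. For Fbln1 the control of day 14 was highest and d-SMG of day 3 lowest. Fbln2 was highest in the control of day 7 (274.7 CPM) and second in d-SMG of day 7 (128.0 CPM), with 32.4 to 68.8 CPM elsewhere. Efemp1 went the other way, with its lowest level of 8.14 CPM in the control of day 7 and its highest of 45.7 CPM in the control of day 3. Fbln5 (13.2 to 28.8 CPM) and Efemp2 (11.6 to 28.3 CPM) varied little, and Emilin2 ranged from 6.35 to 82.4 CPM.

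Lysyl oxidases oxidise lysines of collagen and elastin, which then crosslink. Lox was at 75.3, 306, and 161 CPM in the control on day 3, 7, and 14, respectively, 62.8, 168, and 152 CPM in d-SMG, 98.2, 98.8, and 28.5 CPM in s-GAG, and 79.4, 60.9, and 139.8 CPM in Alg. The control of day 7 was highest and s-GAG of day 14 lowest, with the other 3 libraries of day 14 between 139.8 and 160.9 CPM. Loxl4 had 18.7, 38.4, and 58.8 CPM in the control on day 3, 7, and 14, respectively, 19.6, 45.5, and 55.8 CPM in d-SMG, 41.0, 34.8, and 14.3 CPM in s-GAG, and 23.3, 24.3, and 35.0 CPM in Alg. Loxl4 differed in that the control and d-SMG of day 14 were highest. Loxl1 (15.8 to 80.3 CPM), Loxl2 (37.4 to 245.4 CPM), and Loxl3 (2.53 to 7.32 CPM) each had the control and d-SMG of day 7 as their top 2 libraries and s-GAG of day 14 as the lowest.

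The procollagen group acts inside the cell, apart from Pcolce, which speeds the removal of the collagen propeptide outside it. Plod2, a lysyl hydroxylase of collagen telopeptides, and P4ha1 and P4ha2, the catalytic subunits of prolyl 4-hydroxylases, are known targets of the hypoxia-inducible factors, and the 150 bases before their starts are shown for the letters of the core element of these factors. Postn is shown as 1 of 2 genes, with Tnc, that hold the letters TATAAA. The sequences are those of RefSeq in GRCr8, 5′ to 3′ on the strand of the gene, with each motif match in capitals.
Plod2, chr8:101964168-101964317, + strand: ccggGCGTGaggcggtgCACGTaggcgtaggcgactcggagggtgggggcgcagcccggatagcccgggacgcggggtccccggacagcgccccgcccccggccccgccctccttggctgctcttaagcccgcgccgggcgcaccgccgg
P4ha1, chr20:27844896-27845045, + strand: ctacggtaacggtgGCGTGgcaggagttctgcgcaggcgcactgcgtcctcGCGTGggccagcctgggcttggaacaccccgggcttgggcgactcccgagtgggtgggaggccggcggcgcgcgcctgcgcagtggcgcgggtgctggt
P4ha2, chr10:38743744-38743893, + strand: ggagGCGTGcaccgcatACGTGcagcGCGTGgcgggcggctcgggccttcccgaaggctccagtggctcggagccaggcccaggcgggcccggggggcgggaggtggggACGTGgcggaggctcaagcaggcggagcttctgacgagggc
Postn, chr2:140677911-140678060, + strand: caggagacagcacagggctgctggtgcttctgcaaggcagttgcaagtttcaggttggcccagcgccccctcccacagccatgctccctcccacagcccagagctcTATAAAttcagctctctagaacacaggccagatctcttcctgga

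A promoter entry was found for 29 of the 39 genes, all 29 on the chromosome that the deposited tables give, and the 250 bases before the start were searched on both strands. The hypoxia core, searched as ACGTG or GCGTG, in which ACGTG can overlap its own reverse complement CACGT, was present in 10 of the 29 (34.5%) and in 36.7% of all 33469 promoters. TATAAA was present in 2 (6.90%) against 12.9% of all promoters, CCAAT in 6 (20.7%) against 34.0%, and the AP-1 letters TGACTCA or TGAGTCA in 0 of 29 against 4.05%. None of the 4 motifs was more frequent in these genes than in all promoters. In the sequences above, the core stands 146 and 133 bases before the start of Plod2, 136 and 99 bases before that of P4ha1, and at 4 places in P4ha2.

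Plod2 measured 6.63, 65.9, and 10.1 CPM in the control on day 3, 7, and 14, respectively, 26.1, 20.8, and 5.91 CPM in d-SMG, 8.47, 11.9, and 2.19 CPM in s-GAG, and 8.67, 10.2, and 7.98 CPM in Alg. The control of day 7 exceeded every other library by more than 2-fold, d-SMG of day 3 came second, and s-GAG of day 14 was lowest. Serpinh1 stood at 446, 1344, and 500.4 CPM in the control on day 3, 7, and 14, respectively, 668, 928, and 414 CPM in d-SMG, 382, 233, and 421 CPM in s-GAG, and 401, 454, and 466 CPM in Alg. Serpinh1, the gene of the chaperone HSP47, again had the control and d-SMG of day 7 as its top pair, and the 4 libraries of day 14 lay between 413.8 and 500.4 CPM. P4ha1 (20.4 to 139.8 CPM), P4ha2 (35.0 to 132.0 CPM), P4ha3 (7.28 to 68.5 CPM), Plod1 (27.5 to 65.0 CPM), and Pcolce (44.4 to 267.0 CPM) were all highest in the control of day 7.

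The nidogens link laminin to collagen IV in basement membranes. Nid1 was at 121, 668, and 169 CPM in the control on day 3, 7, and 14, respectively, 150.4, 413, and 91.9 CPM in d-SMG, 172, 136, and 17.4 CPM in s-GAG, and 159, 142, and 179 CPM in Alg. Nid2 had 8.72, 34.6, and 6.84 CPM in the control on day 3, 7, and 14, respectively, 10.5, 17.4, and 5.59 CPM in d-SMG, 8.81, 4.996, and 2.32 CPM in s-GAG, and 9.99, 7.91, and 10.4 CPM in Alg. Both had the control and d-SMG of day 7 on top and s-GAG of day 14 at the bottom, and outside these 3 libraries Nid1 stayed between 91.9 and 179.4 CPM.

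**Figure D3:**
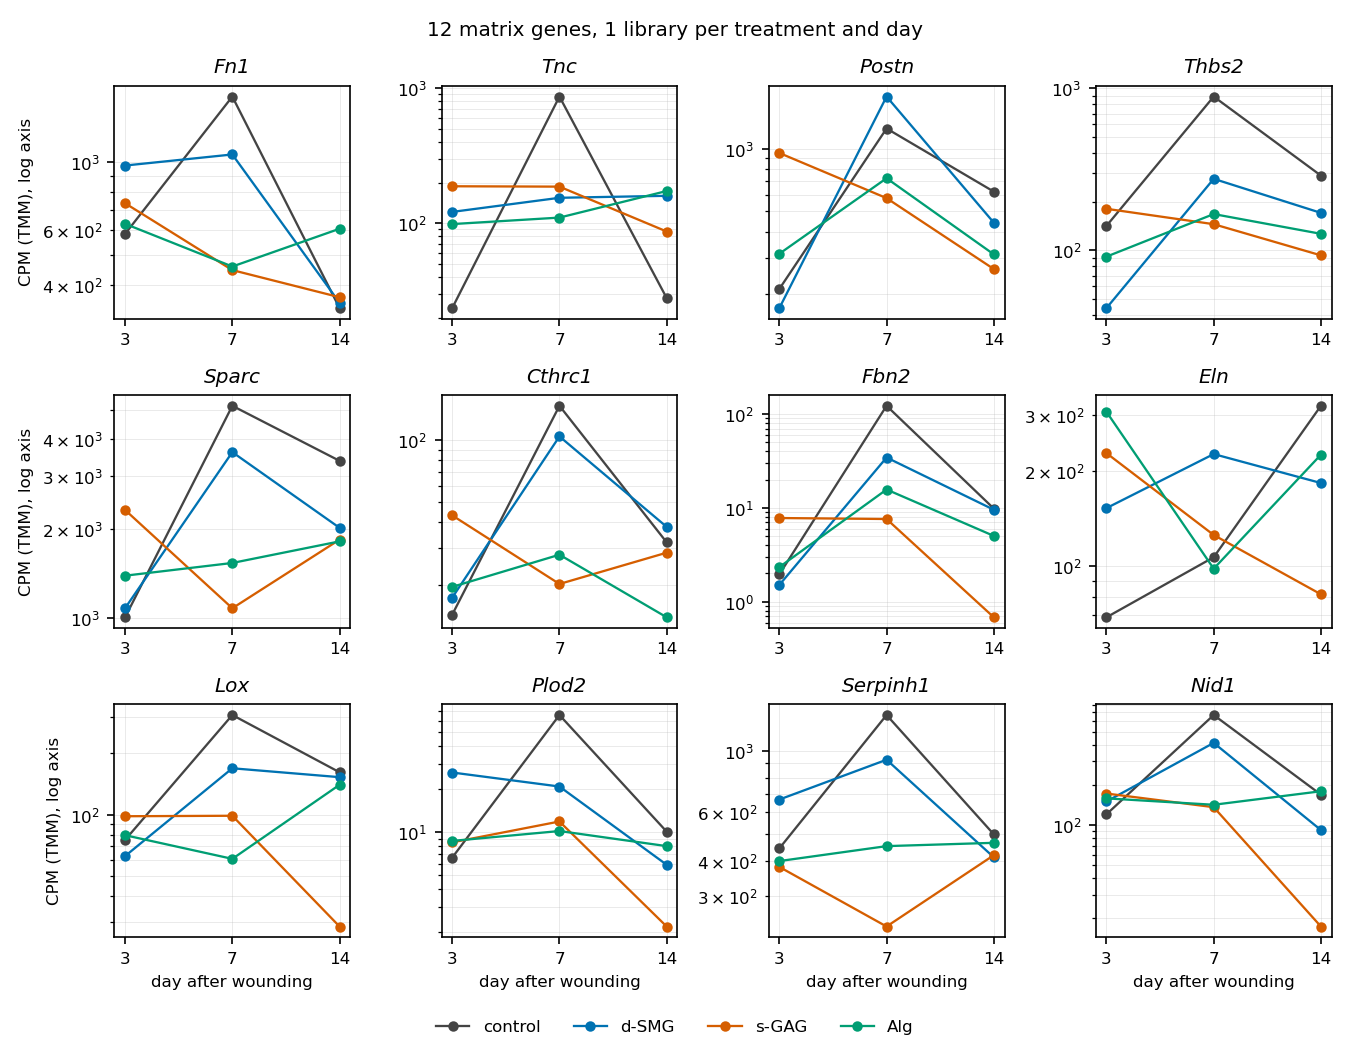
Each panel gives the TMM-normalised CPM of 1 gene, on a log axis, against the day after wounding, with 1 point per library and a line per treatment. In most panels the control (dark grey) and d-SMG (blue) peak on day 7, whereas Tnc lies between 86.9 and 187.9 CPM in the dressed wounds and moves 36.7-fold between days 3 and 7 in the control.

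The course of repair was compared within each treatment, between single libraries and hence without a test, counting the genes at least 2-fold apart. In the control, 24 of the 39 genes were at least 2-fold higher on day 7 than on day 3, against 13.7% of all genes, and 18 were at least 2-fold lower on day 14 than on day 7, against 9.59% of all genes. Fbn2 (61.7-fold), Tnc (36.7-fold), Cthrc1 (10.3-fold), Plod2 (9.91-fold), Mfap4 (8.05-fold), and Thbs2 (6.28-fold) were furthest apart between control day 7 and day 3.

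In d-SMG, 17 of 39 were at least 2-fold higher on day 7 than on day 3, against 19.3% of all genes, and 14 were at least 2-fold lower on day 14 than on day 7, against 11.1%. Postn was 10.3-fold, Thbs2 6.27-fold, and Cthrc1 6.03-fold higher on day 7 than on day 3, and Fbn2 22.1-fold. The count of 17 depends on the scaling. The d-SMG library of day 3 had the lowest TMM factor of all libraries (0.709), and that of day 7 the highest (1.22). With library size alone in place of TMM the count was 30, and the median of all genes moved from 0.10 to 0.87 (log2). The share of all genes at least 2-fold higher under that scaling is not given here.

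In s-GAG, 34 of the 39 genes were lower on day 7 than on day 3, with a median log2 ratio of -0.53, and in Alg 26 were lower and 13 higher, with a median of -0.16, against medians of -0.02 and -0.05 over all genes. In s-GAG, 1 of 39 was at least 2-fold higher on day 7 than on day 3, against 4.40% of all genes, and 15 were at least 2-fold lower on day 14 than on day 7, against 24.0%. In Alg these counts were 2 of 39, against 6.99%, and 5 of 38 (Comp had too few reads), against 10.5%. The other direction in Alg held 5 of 38 genes at least 2-fold higher on day 14 than on day 7, against 10.6%. From day 7 to day 14 in Alg, 26 genes were higher and 12 lower. Their median log2 ratio was 0.29, against 0.07 over all genes. In s-GAG, 7 of 39 were at least 2-fold lower on day 7 than on day 3, against 7.42%. On day 7, 20 genes were at least 2-fold higher in d-SMG than in s-GAG and 21 than in Alg, against 12.7% and 12.1% of all genes.

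On day 3, the median ratio of each dressed wound to the control was above 0. In s-GAG, 12 of 39 genes were at least 2-fold higher than in the control and 1 lower, against 14.3% and 10.7% of all genes, with a median log2 ratio of 0.35. Tnc (7.96-fold), Mfap4 (6.80-fold), and Postn (4.48-fold) were furthest above, and Efemp1 (2.38-fold), P4ha3 (1.53-fold), and Loxl3 (1.48-fold) furthest below. In d-SMG, 5 were at least 2-fold higher and 3 lower, against 10.8% and 13.2%, with a median of 0.18. Tnc (5.14-fold), Plod2 (3.93-fold), and Thbs3 (3.16-fold) led the first, and Fbln1 (3.51-fold), Thbs2 (3.21-fold), and Efemp1 (3.21-fold) the second. In Alg, 3 were higher and 0 lower, against 11.3% and 8.39%, with a median of 0.20, namely Eln (4.45-fold), Tnc (4.18-fold), and Mfap4 (2.57-fold), while Thbs2 (1.55-fold), Efemp1 (1.48-fold), and Emilin2 (1.45-fold) were furthest below. With library size alone the median of all genes between d-SMG and control on day 3 moved from 0.05 to -0.45 (log2), that of the 39 genes was -0.32, and 4 were then at least 2-fold higher and 7 lower. With log2(FPKM + 1) these counts were 2 and 5. The shares of all genes at least 2-fold apart under these settings are not given here.

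Tnc and Eln were at least 2-fold above the control in all 3 dressings on day 3, where this held for 2.42% of all genes. The log2 ratio of Tnc was 2.36 in d-SMG (counting interval 2.22 to 2.51), 2.99 in s-GAG (2.86 to 3.12), and 2.06 in Alg (1.93 to 2.20). These 95% Clopper-Pearson intervals cover counting error only, since 1 library per group has no replicate check. For elastin, whose deposition in scars is slow, the control of day 3 was the lowest of all 12 libraries.

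On day 7, the order turned. In s-GAG, 29 of the 39 genes were at least 2-fold lower than in the control and 2 higher, against 13.2% and 12.5% of all genes, with a median log2 ratio of -1.50. Fbn2 (16.0-fold), Emilin1 (9.01-fold), and Cthrc1 (7.30-fold) were furthest below. Apart from Comp, Efemp1 (3.00-fold), Thbs4 (1.55-fold), and Vtn (1.33-fold) were furthest above. The count of 2 higher includes Comp, at 2.65-fold, with 32 reads in s-GAG against 4 in the control, too few to rank. In Alg, 29 were also at least 2-fold lower and 1 higher, against 11.8% and 12.2%, with a median of -1.38. Tnc (7.85-fold), Fbn2 (7.78-fold), and Plod2 (6.47-fold) were furthest below, Efemp1 was 2.21-fold above, and Vtn was 1.16-fold above with a counting interval of -0.28 to 0.71 (log2). In d-SMG, only 5 were at least 2-fold lower and 3 higher, against 5.70% and 7.10%, with a median of -0.49. Tnc (5.61-fold), Fbn2 (3.55-fold), and Thbs2 (3.22-fold) were furthest below. Apart from Comp, Efemp1 (3.39-fold), Eln (2.12-fold), and Postn (1.42-fold) were furthest above. The count of 3 higher includes Comp, at 2.58-fold, with 16 reads in d-SMG against 4 in the control, again too few to rank.

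All 3 dressings lay below the control of day 7 in 27 of the 39 genes and above it in 3, whereas all 3 lay below in 24.4% and above in 26.2% of all genes. Tnc, Thbs2, Fbn2, Fbln2, and Plod2 were at least 2-fold below in all 3, which held for 1.05% of all genes. Efemp1 was at least 2-fold above in all 3, which held for 3.81% of all genes. These comparisons share the control library of day 7, which also has the highest level of most of these genes, and so they are not separate pieces of evidence.

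**Figure D4:**
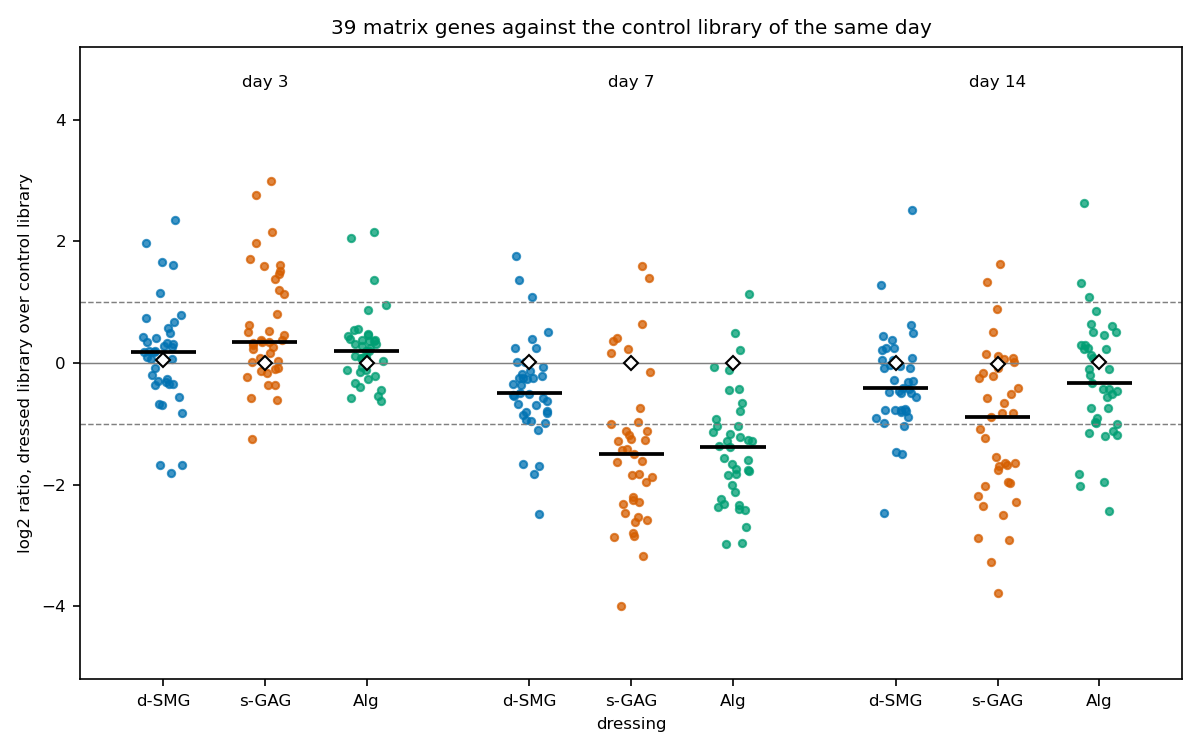
Each point is 1 of the 39 genes, placed by the log2 ratio of its CPM in a dressed library to that in the control library of the same day, the black bar is their median, the white diamond the median of all genes, and the dashed lines mark a 2-fold difference. Most points of s-GAG and Alg on day 7 lie below the lower dashed line, with medians of -1.50 and -1.38, whereas d-SMG has a median of -0.49.

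On day 14, the s-GAG library differed from the control in many genes of every kind. In s-GAG, 19 of 39 were at least 2-fold lower and 2 higher, against 29.4% and 28.1% of all genes, and Fbn2 (13.7-fold, with 10 reads in s-GAG), Nid1 (9.70-fold), and Emilin2 (7.50-fold) were furthest below. Tnc (3.10-fold), P4ha3 (2.51-fold), and Efemp2 (1.85-fold) were furthest above. Its keratinocyte markers summed to 37962 CPM and its skeletal muscle markers to 149273 CPM, against 8897 and 75879 CPM in the control. In d-SMG, 4 were lower and 2 higher, against 15.4% and 12.8%, with Thbs4 (5.51-fold), Mfap2 (2.81-fold), and Fbln1 (2.77-fold) furthest below and Tnc (5.70-fold), Thbs1 (2.43-fold), and P4ha3 (1.54-fold) furthest above. In Alg, 8 were lower and 3 higher, against 11.4% and 9.43%, with Thbs4 (5.38-fold), Mfap4 (4.07-fold), and Mfap2 (3.88-fold) furthest below and Tnc (6.19-fold), Thbs1 (2.49-fold), and Emilin1 (2.13-fold) furthest above. The median log2 ratios of day 14 were -0.88 in s-GAG, -0.41 in d-SMG, and -0.33 in Alg, against -0.01, 0.004, and 0.01 over all genes. All 3 dressings lay below the control in 20 of the 39 genes and above it in 7, against 28.2% and 30.1% of all genes. These comparisons share the control library of day 14. Tnc was at least 2-fold above the control in all 3 dressings on day 14, which held for 4.85% of all genes, and Thbs4 at least 2-fold below, which held for 4.36%.

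Whether the days differed was tested over all 12 libraries, with the 4 treatments of a day as its replicates, by edgeR's quasi-likelihood test on 15354 genes, in which all 39 were tested. A course that differs between treatments counts as spread in this test. Between day 7 and day 3 it called 0 of the 39, and 0.00% of all genes, at an adjusted p under 0.05. At an unadjusted p under 0.05, 2 were higher and 0 lower, against 0.879% and 0.782% of all genes. They were Fbn2, with a log2 fold change of 2.96 ± 1.13 (SE) and an unadjusted p of 0.0269 by edgeR, and Thbs2, with 1.38 ± 0.54 and 0.0313. The smallest adjusted p of the 39 genes by edgeR was 0.998. The median log2 fold change of the 39 genes was 0.42, with 29 above 0, against -0.02 over all genes. In the same comparison 16 of 17 skeletal muscle genes were below 0 (median -0.84), 9 of 10 keratinocyte genes above 0 (median 1.03), and 6 of 10 fibroblast genes above 0 (median 0.34), and their part was not tested. The median of the 39 was 0.17 without the control of day 3, 0.19 without the control of day 7, and 0.80 without s-GAG of day 3. The 2 unadjusted calls became 0 without the control, d-SMG, or Alg of day 3 or the control of day 7. They became 1 without d-SMG of day 7 and 4 without Alg of day 7. Without s-GAG of day 7 they were 6, and without s-GAG of day 3 they were 10. In the fits without 1 library, here and below, the share of all genes at an unadjusted p under 0.05 was not counted. Such counts therefore cannot be set against all genes.

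Between day 14 and day 7, the test again called 0 of 39 and 0.00% of all genes. At an unadjusted p under 0.05, 7 were lower and 0 higher, against 1.33% and 1.55% of all genes. Plod2 was furthest past it by edgeR, with a log2 fold change of -1.88 ± 0.60 and an unadjusted p of 0.0119. The others were Fbn2 (-2.49 ± 0.97), Nid1 (-1.61 ± 0.66), Nid2 (-1.24 ± 0.52), P4ha3 (-1.32 ± 0.57), Thbs3 (-1.06 ± 0.47), and Fbln2 (-1.09 ± 0.48). The smallest adjusted p of the 39 by edgeR was 0.904. The median was -0.45, with 31 of 39 below 0, against 0.02 over all genes. In the same comparison the 11 hair follicle genes (median 2.45) and the 10 keratinocyte genes (median 0.97) were all above 0 and the 7 endothelial genes all below 0 (median -0.71), and their part was not tested. The median of the 39 was -0.17 without the control of day 7, -0.27 without s-GAG of day 14, and -0.72 without Alg of day 7. The count of 7 became 0 without the control of day 7, 1 without d-SMG of day 7, and 2 without d-SMG or s-GAG of day 14. It became 3 without Alg of day 3 or the control of day 14, and 6 without d-SMG of day 3. It rose to 8 without Alg of day 7, 9 without Alg of day 14, and 10 without s-GAG of day 7.

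Between day 14 and day 3, 17 of the 39 genes were above 0 and 22 below. The edgeR test called 0 of 39 and 0.00% of all genes, and 0 were higher and 1 lower at an unadjusted p under 0.05, against 2.99% and 1.87% of all genes. The 1 gene was Comp, at -1.15 ± 0.49 and an unadjusted p of 0.0410 by edgeR, with the few reads given above. The count of 1 became 0 without d-SMG or Alg of day 3, d-SMG, s-GAG, or Alg of day 7, or d-SMG of day 14. It became 2 without the control of day 14, 3 without the control of day 3, and 5 without s-GAG of day 3 or Alg of day 14. The median was -0.03, and without single libraries it lay between -0.30 (without the control of day 3) and 0.16 (without s-GAG of day 3). By DESeq2, 0 of the 39 were called in any of these 3 comparisons, where it called 0, 7, and 37 of all genes for day 7 against 3, 14 against 7, and 14 against 3. DESeq2 gave 5, 10, and 1 of the 39 at an unadjusted p under 0.05, and limma on log2(FPKM + 1) gave 3, 4, and 1, with 0 genes called. The share of all genes at that unadjusted p was not counted for DESeq2 or limma.

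**Figure D5:**
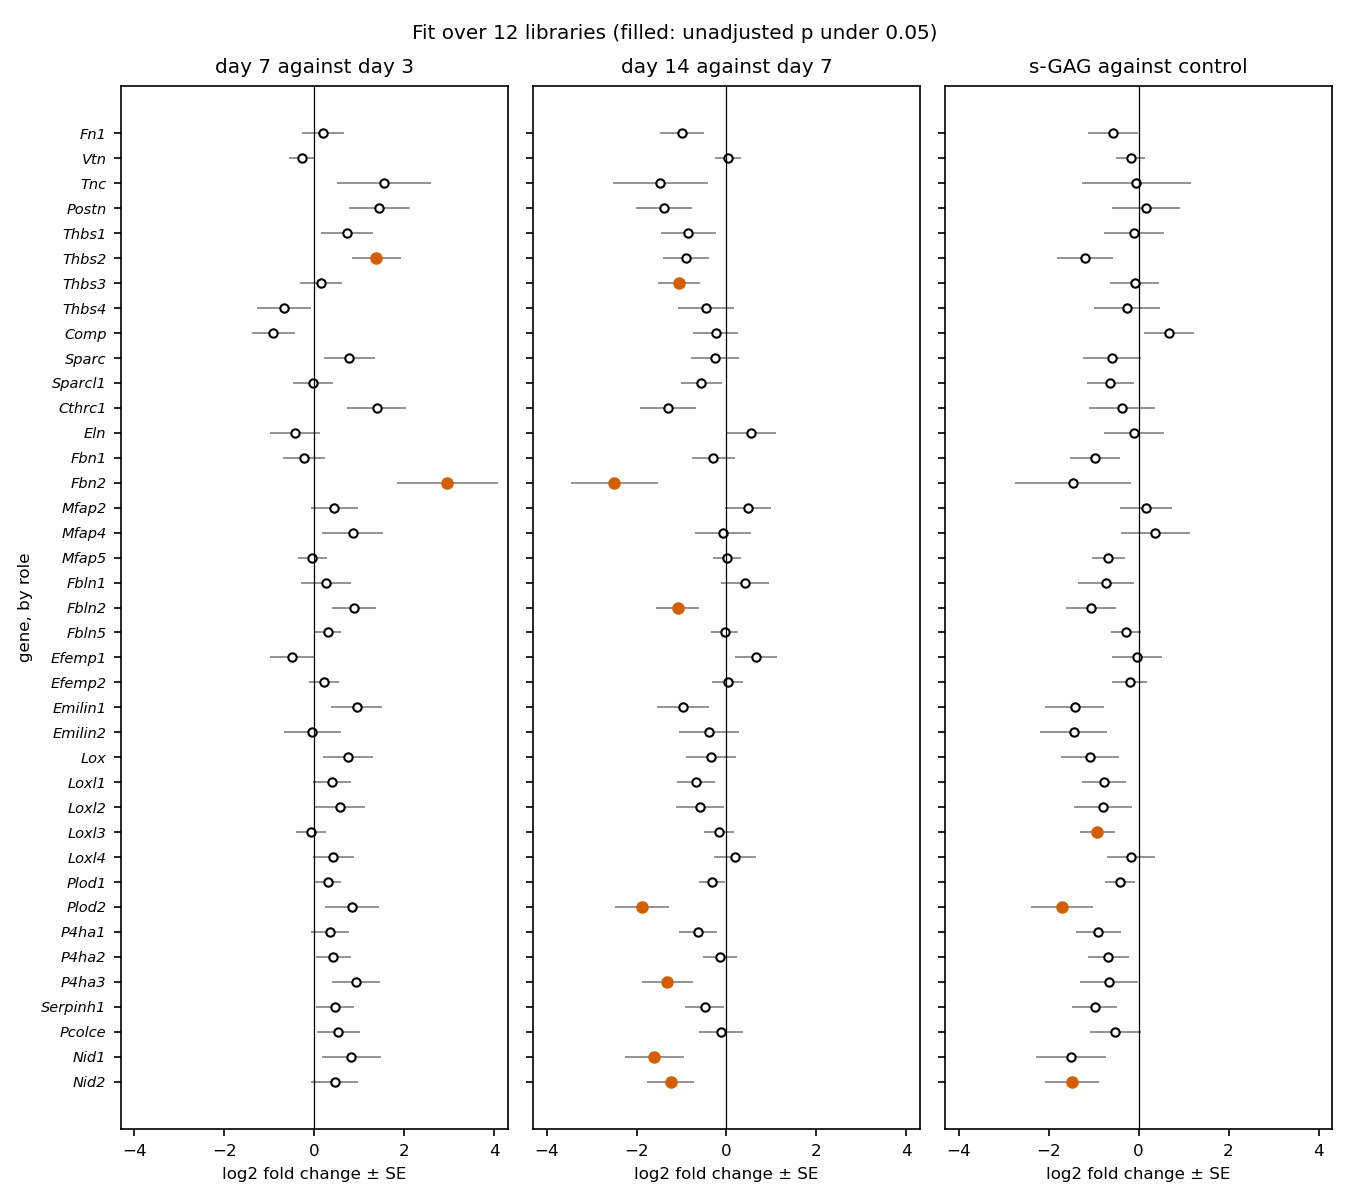
Points give the log2 fold change of each of the 39 genes with its SE, from edgeR's fit over the 12 libraries, for day 7 against day 3, day 14 against day 7, and s-GAG against control. Filled points have an unadjusted p under 0.05 (2, 7, and 3 genes), none of which passed the adjusted threshold, and most points lie right of 0 in the first panel and left of 0 in the others.

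The dressings were compared with the control over the 3 days in the same fit, with the days as replicates. For s-GAG, 0 of 39 and 0.00% of all genes were called by edgeR, and without d-SMG of day 3 it called 67 genes, again 0 of the 39. At an unadjusted p under 0.05, 3 were lower and 0 higher, against 3.64% and 5.46% of all genes, namely Plod2 (-1.70 ± 0.69), Nid2 (-1.48 ± 0.60), and Loxl3 (-0.92 ± 0.38). The smallest adjusted p of the 39 by edgeR was 0.531. The median log2 fold change was -0.63, with 35 of 39 below 0, against -0.004 over all genes, with 7718 of 15354 below 0. The median of the 39 was -0.34 without the control of day 7 and -0.37 without s-GAG of day 7. It was -1.0 without the control of day 3 and -0.99 without s-GAG of day 3. The count of 3 became 0 without s-GAG of day 7, 1 without the control of day 7, and 5 without Alg of day 14. It became 9 without the control of day 3 and 14 without s-GAG of day 3. In both of the last fits the library left out was from day 3, when s-GAG lay above the control. The share of all genes at that unadjusted p was not counted in these fits. Markers of other cells moved in the same comparison, with 0 called. The 11 hair follicle genes were all above 0, with a median of 6.92, and all had an unadjusted p under 0.05. The 8 macrophage genes were all below 0 (median -1.42, 3 at an unadjusted p under 0.05), as were 6 of 7 endothelial genes (median -0.77, 3) and 7 of 10 fibroblast genes (median -0.57, 1), while the 10 keratinocyte genes had a median of 1.45. Their part in the median of the 39 genes was not tested.

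For Alg, 0 of 39 and 0.00% of all genes were called by edgeR, and at an unadjusted p under 0.05, 2 were lower and 0 higher, against 0.814% and 2.13%. They were Thbs2 (log2 fold change -1.49 ± 0.60) and Mfap5 (-0.88 ± 0.37), and the smallest adjusted p of the 39 by edgeR was 1. The median was -0.53, with 36 of 39 below 0, against -0.02 over all genes, and it was -0.27 without the control of day 7, -0.26 without Alg of day 7, -0.81 without Alg of day 14, and -0.87 without the control of day 3. The count of 2 became 0 without Alg of day 7 or the control of day 14. It became 1 without Alg of day 3, the control of day 7, or Alg of day 14, and 7 without the control of day 3. The share of all genes at that unadjusted p was not counted in these fits. In this comparison the 11 hair follicle genes had a median of 5.74, all with an unadjusted p under 0.05, the adipocyte genes one of 1.02, and the macrophage genes one of -0.73, with 0 called, and their part was not tested.

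For d-SMG, 0 of 39 and 0.00% of all genes were called by edgeR, and at an unadjusted p under 0.05, 1 was lower and 0 higher, against 0.475% and 0.847%. The 1 gene was Thbs2 (log2 fold change -1.34 ± 0.60). The count of 1 became 0 without d-SMG of day 3 or any of the 3 Alg libraries, and 3 without the control of day 3. The median was -0.28, with 30 of 39 below 0, against 0.02 over all genes. It was 0.06 without the control of day 7, -0.63 without the control of day 3, and -0.50 without d-SMG of day 7, so that its sign rests on 1 library. The 11 hair follicle genes were all above 0 here, with a median of 4.37 and 8 at an unadjusted p under 0.05, and the fibroblast genes had a median of -0.31, with 0 called, and their part was not tested. By DESeq2, 8, 289, and 83 of all genes were called for d-SMG, s-GAG, and Alg, with 0 of the 39 in each, and 1, 7, and 2 of the 39 had an unadjusted p under 0.05. Limma on log2(FPKM + 1) called 0 genes, with 1, 1, and 0 of the 39 at an unadjusted p under 0.05. For these DESeq2 and limma counts, too, the share of all genes at that p was not counted.

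Genes that work beside these were followed as 4 lists, and edgeR called 0 genes of any list in any comparison. The 13 fibrillar and fibril-associated collagen genes, whose products the crosslinkers act on, had a median log2 fold change of 0.90 between day 7 and day 3, with 13 of 13 above 0, and of -0.65 between day 14 and day 7, with 13 of 13 below 0. Their summed level was 66847 CPM in the control and 41055 CPM in d-SMG on day 7, against 9492 to 38965 CPM in the other libraries. Against the control over the days their median was -0.60 in d-SMG, -0.88 in s-GAG, and -0.75 in Alg, with 13 of 13 below 0 in each. Of the 17 tested among 19 other collagen-modifying enzymes, 16 were above 0 between day 7 and day 3 (median 0.23) and 14 below 0 between day 14 and day 7 (median -0.40), and their summed level was 1151 to 2429 CPM, highest again in the control of day 7. The 12 tested of 13 other matricellular genes had medians of 0.46 and -0.23 in these comparisons, and summed to 2421 CPM in the control and 2482 CPM in d-SMG on day 7, against 436.7 to 1632 CPM elsewhere. The 10 other elastic fibre genes, among them the latent TGF-β binding proteins, had medians of -0.12 and 0.38, and of 0.77 for s-GAG against control, the opposite sign to the 39 genes, and summed to 198.0 to 314.2 CPM with no peak on day 7.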

How the data were processed

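RNA of wound tissue was sequenced from stranded, rRNA-depleted libraries with paired reads. The submitters' processing notes name bcl2fastq, FastQC, TopHat2, and edgeR without versions or roles, and the genome build and the counting tool are not given in the sources used here. The authors deposited raw read counts per gene, as whole numbers, and FPKM values, scaled by the authors to gene length and library total. In each table, 1 value column matches no described sample and was not used. Libraries were grouped by the treatment and day of their labels.

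The 39 genes and the lists of other genes were chosen with earlier results of these data known. Genes kept by filterByExpr on day (15354) were fitted with day and treatment as terms with TMM factors by edgeR's quasi-likelihood test (edgeR 4.0.16, R 4.3.3), with 6 residual degrees of freedom, and Benjamini-Hochberg adjustment over all genes tested at 0.05. Days serve as the replicates of a treatment and treatments as those of a day, so that the p-values measure the spread between these libraries. The common BCV was 0.490. Single libraries were compared as log2 ratios of TMM-normalised CPM with a prior count of 0.5, without a test, for genes whose reads in both libraries summed to 10 or more. Counting intervals are exact Clopper-Pearson intervals at 95% and cover counting error only. Values in every library are given for the gene of each role with the largest change between day 14 and day 3, that with the highest FPKM, and the 3 with the smallest p in a treatment comparison. For each single-day comparison, the 3 genes furthest in each direction are named if the higher of the pair had 50 reads or more, and other named genes were chosen after their values were seen. The alternatives were RLE size factors, library size alone, other count filters, a prior count of 2, a fold of 1.5, DESeq2 1.42.0, limma 3.58.1 on log2(FPKM + 1) and log2(FPKM + 0.1), fits without a block or with the compared libraries only, and leaving out each library. The fit was tested only on simulated data with less spread than these libraries and no difference between treatments. How well it finds changes at the spread of these libraries was not tested. Promoters are 250 bases before the start in RefSeq (GRCr8), a build not known to be that of the counts.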

Additional observations from a re-analysis of the deposited data

Results flagged for a closer look

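In each day, the 4 libraries were searched for a level standing far from the other 3 in each of the 39 genes, 117 searches in all, of which chance alone would flag about 1 in 20. The search marked 7 levels, 3 of them in Alg of day 14, 2 in the control of day 14, and 1 each in s-GAG of day 14 and d-SMG of day 3. On day 14, Alg had 607.1 CPM of Fn1 against 335.6 to 363.9 CPM in the other libraries, 8.86 CPM of Thbs3 against 6.22 to 6.599 CPM, and 0.126 CPM of Comp (2 reads) against 0.530 to 0.691 CPM. The control of day 14 had 42.1 CPM of Thbs4 against 5.67 to 7.79 CPM, and 3384 CPM of Sparc against 1814 to 2015 CPM. The tendon markers summed to 65.0 CPM in that library, against 19.8 to 36.4 CPM in the others, and their part in the Thbs4 level was not tested. Lox was at 28.5 CPM in s-GAG of day 14, against 139.8 to 160.9 CPM. Fbln1 was at 4.37 CPM in d-SMG of day 3, against 15.4 to 19.96 CPM, in the library with the lowest fibroblast sum.

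Tnc, the gene of tenascin C, was above the control of the same day in all 3 dressings on day 3, with a median log2 ratio of 2.36, below it in all 3 on day 7, with a median of -2.49, and above it again in all 3 on day 14, with a median of 2.51. The difference between days was not tested, since each treatment and day has 1 library and the 3 ratios of a day share 1 control. The dressed levels lay within 86.9 to 187.9 CPM throughout, and the control moved between 23.6 and 865.8 CPM.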

How the results depend on the processing

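The calls were 0 of the 39 genes in all 6 fitted comparisons under every setting tried, with or without a replicate block, and in each fit without 1 library (range 0 to 0). Counting an unadjusted p under 0.05 in place of the adjusted p gave 2, 1, and 7 for day 7 against day 3, day 14 against day 3, and day 14 against day 7, and 1, 3, and 2 for d-SMG, s-GAG, and Alg. The median of the 39 genes changed sign for d-SMG without the control of day 7 (0.06, from -0.28), and for d-SMG against control on day 3 with library size alone (-0.32, from 0.18), a scaling that moved the median of all genes by over 0.1 in several pairs of libraries. For day 14 against day 3 the median (-0.03) also changed sign without single libraries. It became 0.16 without s-GAG of day 3, 0.02 without Alg of day 3, and 0.05 without s-GAG of day 14. At 1.5-fold in place of 2-fold, the genes apart from the control became 14 (from 8) in d-SMG and 6 (from 3) in Alg on day 3, 18 (from 8) in d-SMG on day 7, and 16 (from 6) in d-SMG and 20 (from 11) in Alg on day 14. Library size alone gave 5 (from 3) in Alg on day 3. The genes higher on day 7 than on day 3 became 30 with library size alone, 29 with log2(FPKM + 1), and 30 with log2(FPKM + 0.1) in d-SMG (from 17), and 1 with log2(FPKM + 1) in Alg (from 2). Those lower on day 14 than on day 7 in Alg became 2, 1, and 2 under these settings (from 5), and with library size alone 6 were then higher (from 5). The cause was not tested. The within-treatment settings were chosen after seeing the data. The shares of all genes at 1.5-fold or under the other scalings are not given here, so these counts cannot be set against all genes. Depth limits the values of Comp, with 2 to 32 reads, and of Fbn2 in s-GAG on day 14, with 10 reads.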
